A study of Arvicanthis niloticus with 59 samples.

Results

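Uroplakins are the membrane proteins of the bladder lining, and their RNA was followed here in a rodent active by day, the Nile grass rat (Arvicanthis niloticus). The genes described are the 5 uroplakins Upk1a, Upk2, Upk1b, Upk3a and Upk3b and the bladder-surface gene Psca. They are the 6 rows that carry these symbols among the 18970 genes of the tables, and each was listed with a single transcript. They were chosen by name, with earlier results of these data known. The study took biopsies of healthy, untreated tissue from 4 animals, T173F, T426, T3F and T424, at 48 sites of 22 organs, and made 59 polyadenylated RNA libraries from them. Bladder was sampled in T173F alone (1 library) and the renal pelvis in T173F and T426 (1 library each). T3F gave 38 libraries, T173F 12, T426 8 and T424 1, and the labels give no age, genotype or strain. Of the 48 sites, 10 have libraries of 2 animals and 38 have 1 library, so most levels below have no replicate.

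Urothelium, the epithelium that lines the urinary tract from the renal pelvis to the bladder, carries rigid plaques of uroplakin on its luminal face. Upk1a and Upk1b encode tetraspanins, which span the membrane several times. Upk1a pairs with the product of Upk2 and Upk1b with that of Upk3a, and the pairs are assembled in the cell and carried to the apical membrane of the umbrella cells in flat vesicles. Upk3b encodes a relative of Upk3a that can also pair with Upk1b, and in mouse it is used as a marker of mesothelium, the lining of body cavities. Psca, prostate stem cell antigen, is no uroplakin but a small protein of the Ly6 family held to the cell surface by a lipid anchor, known from bladder, prostate and stomach epithelium.

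Depth varied widely: the libraries held 678819 to 41309569 expected counts in total (median 16406604), with the lowest totals in testis T424, pancreas T173F (1573234) and the 8 libraries of T426 (1691561 to 3827321). Several libraries held genes that go against their labels. The library labelled lung T3F held 127400 TPM (a level scaled for transcript length and library size) of 7 hepatocyte genes, and the library labelled liver T3F held airway genes. Male germ cell genes summed to 22820 to 122400 TPM in T426 femur, hippocampus and retina. Renal pelvis T426 held 20630 TPM of hepatocyte genes, against 9.04 TPM in renal pelvis T173F. Cornea T3F held 7213 TPM of the same 7 genes, albumin (Alb) at 3789 TPM among them. Their part in the results was not tested. Where a call of a described gene ended without such a library of its own site, this is said with the call. In bulk tissue, fewer cells of a type and less RNA per cell cannot be told apart.

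Upk1a reached 5448 TPM in the bladder library of T173F and its partner Upk2 4420 TPM, ranks 10 and 15 of 18970 genes there. The second pair was lower, with Upk1b at 1602 TPM and Upk3a at 1150 TPM. Upk3b stood at 319.5 TPM. Together the 5 genes made up 12940 TPM, of which Upk1a held 42.1%, Upk2 34.2%, Upk1b 12.4%, Upk3a 8.89% and Upk3b 2.47%. The members of a pair were closer to each other in TPM than either pair was to the other. Psca added 3583 TPM. Between 1132 and 13656 expected counts stood behind each of the 6 values.

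The tissue carried the marks its label implies. Umbrella cell keratin Krt20 had 855.6 TPM, the luminal keratin Krt7 492.1 TPM, and Snx31, a sorting nexin that handles uroplakins, 424.6 TPM. Smooth muscle was present too, at 37450 TPM over 8 genes, the highest sum of the 59 libraries.

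**Figure D1:**
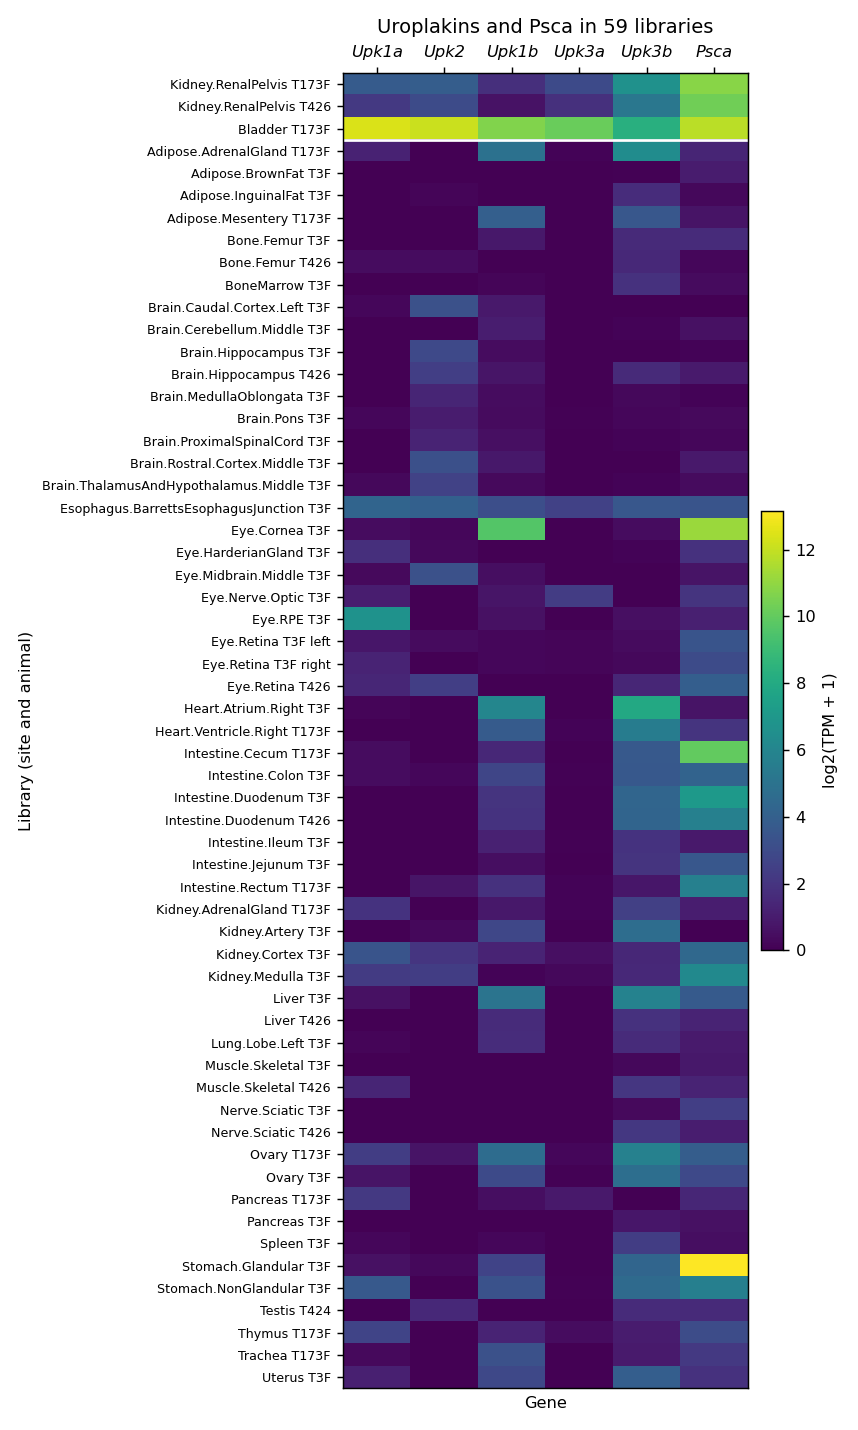
Level of each gene as log2(TPM + 1) in each of the 59 libraries, with both renal pelvis libraries and the bladder library above the white line. Bladder is bright for all 6 genes, while most libraries below the line are dark for Upk1a, Upk2 and Upk3a and brighter for Upk3b and Psca.

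At other sites the levels were lower by factors that differed widely between the genes. The next site after bladder was 233 times lower for Upk3a and 287 times lower for Upk2, both at the esophageal junction, and 51.7 times lower for Upk1a, in the retinal pigment epithelium. For Upk1b the next site, cornea, was 1.98 times lower, and for Upk3b the right atrium was 1.31 times lower. Psca was highest in glandular stomach, at 2.55 times the bladder level. Upk3a was the most restricted, with 5 of 59 libraries at 1 TPM or more and 37 listed at 0. Upk2 reached 1 TPM in 16 libraries, Upk1a in 19, Upk1b in 27, and Upk3b and Psca in 37 each.

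A test of bladder against the mean of 9 replicated sites, all but the renal pelvis, placed the 6 genes higher in bladder by edgeR (called at an adjusted p below 0.05 with a log2 fold change of 1 or more in size). The 6 calls compare with 1.84% of 17877 genes called higher. The lone bladder library was assumed to vary like the replicated sites, so the difference has no replicate check of its own. Psca had 3583 TPM in bladder, against a mean of 14.4 TPM over the 9 sites, a log2 fold change of 9.09 ± 0.51 (SE; adjusted p = 2.11e-07). Upk3b had 319.5 TPM in bladder, against a mean of 10.6 TPM over the 9 sites, with a log2 fold change of 5.71 ± 0.98 (adjusted p = 0.0056). For the other 4 genes some sites were at 0 in both animals, so that the fitted log2 differences of 11.36 for Upk1b, 13.82 for Upk1a, 14.72 for Upk2 and 15.28 for Upk3a depend on the prior count and are no bounds. Their adjusted p-values lay between 3.1e-06 and 0.000129. The 6 calls held when each of the 21 libraries of the replicated sites was left out in turn (the bladder library itself cannot be), and with the animal as a block only Upk1a, Upk1b and Psca stayed called.

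In the renal pelvis Psca and Upk3b were abundant and the paired uroplakins were not. Psca had 1801 TPM in T173F and 1254 TPM in T426. Upk3b had 101 TPM in T173F and 36.1 TPM in T426. Upk2 had 13.7 TPM in T173F and 7.15 TPM in T426, and its partner Upk1a 12.9 and 3.49 TPM. Upk3a had 6.72 and 2.495 TPM in the same animals, and Upk1b was lowest, at 2.36 and 0.588 TPM. Both animals gave the same order of Psca above Upk3b above the other 4 genes. The counts behind T426 were small, with 4 for Upk1a, 9 for Upk2 and 12 for Upk3a.

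The make-up of the uroplakin message therefore differed between the renal pelvis libraries and the bladder library, which are mixed tissue. Upk3b held 73.9% of the summed uroplakin TPM in renal pelvis T173F and 72.4% in renal pelvis T426, against 2.47% in bladder. Upk1a held 9.42% and 7.01% in the renal pelvis libraries, against 42.1% in bladder. Psca exceeded the summed uroplakins 13.1 times in renal pelvis T173F and 25.2 times in renal pelvis T426, and it was 0.277 times their sum in bladder. As shares of the bladder level, renal pelvis T173F and T426 had 0.237% and 0.0641% of Upk1a, 31.7% and 11.3% of Upk3b, and 50.2% and 35.0% of Psca. No test was made of these shares, since bladder has 1 library.

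**Figure D2:**
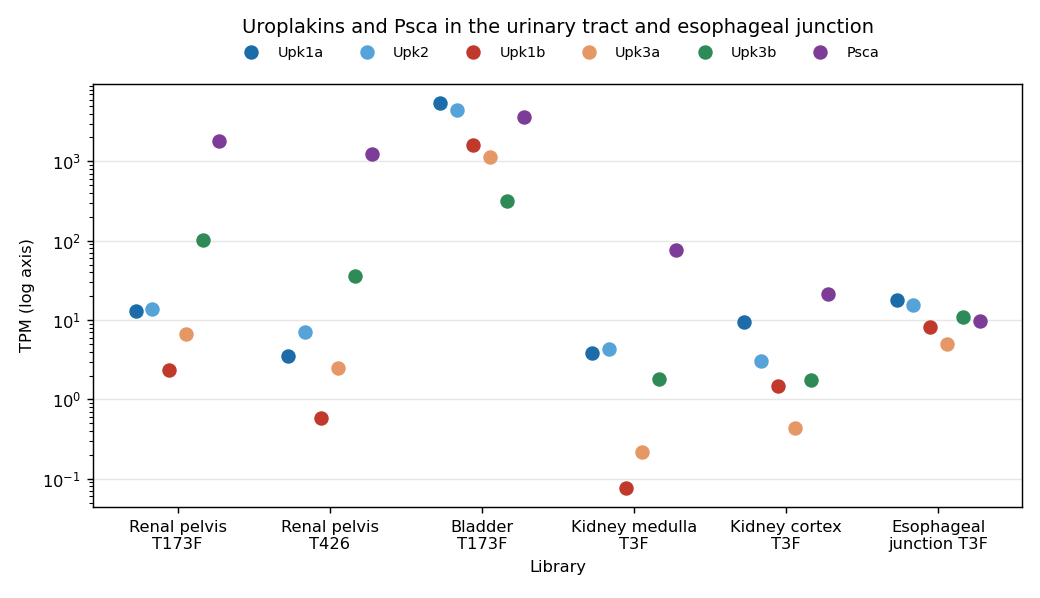
TPM of each gene on a log axis in the renal pelvis of 2 animals, bladder, kidney medulla, kidney cortex and esophageal junction, 1 point per library. Psca and Upk3b top both renal pelvis libraries, whereas in bladder Upk3b is the lowest of the 6 and the paired uroplakins lie between 1150 and 5448 TPM.

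The renal pelvis was also the only urothelial site with 2 animals, and it was set against the mean of the other 9 replicated sites. Of the 6 genes 4 were higher by edgeR, where 5.73% of 17564 genes were called higher. Psca averaged 1527 ± 386 TPM in renal pelvis (SD, n = 2), against a mean of 14.4 TPM over the other sites. Its log2 fold change was 7.81 ± 0.44 (SE; adjusted p = 2.41e-07), and every left-out library and every other setting kept this call. Upk3b averaged 68.7 ± 46.1 TPM in renal pelvis (SD, n = 2), against 10.6 TPM over the other sites, with a log2 fold change of 3.40 ± 0.95 (adjusted p = 0.0453). Upk3a averaged 4.61 ± 2.99 TPM in renal pelvis (SD, n = 2), against 0.0659 TPM elsewhere (fitted difference 7.24, adjusted p = 0.00654).

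Upk2 averaged 10.4 ± 4.65 TPM in renal pelvis (SD, n = 2), against 0.925 TPM elsewhere (fitted difference 5.82, adjusted p = 0.0321). Upk1a, at 8.20 ± 6.66 TPM in renal pelvis (SD, n = 2) and 0.757 TPM elsewhere, did not pass (fitted difference 4.18, adjusted p = 0.0747). Neither did Upk1b, at 1.48 ± 1.25 TPM in renal pelvis (SD, n = 2) and 4.12 TPM elsewhere (fitted difference 1.27, adjusted p = 0.633). For Upk1b the fitted difference was positive although the mean TPM was lower in renal pelvis. Among these calls that of Upk3a held without 20 of the 21 libraries in turn, ending without renal pelvis T173F. That of Upk2 held in 11 and that of Upk3b in 8. Both of these ended when either renal pelvis library, T173F or T426, was left out. With the animal as a block only Psca stayed called, with a log2 fold change of 7.77 (adjusted p = 2.45e-05).

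**Figure D3:**
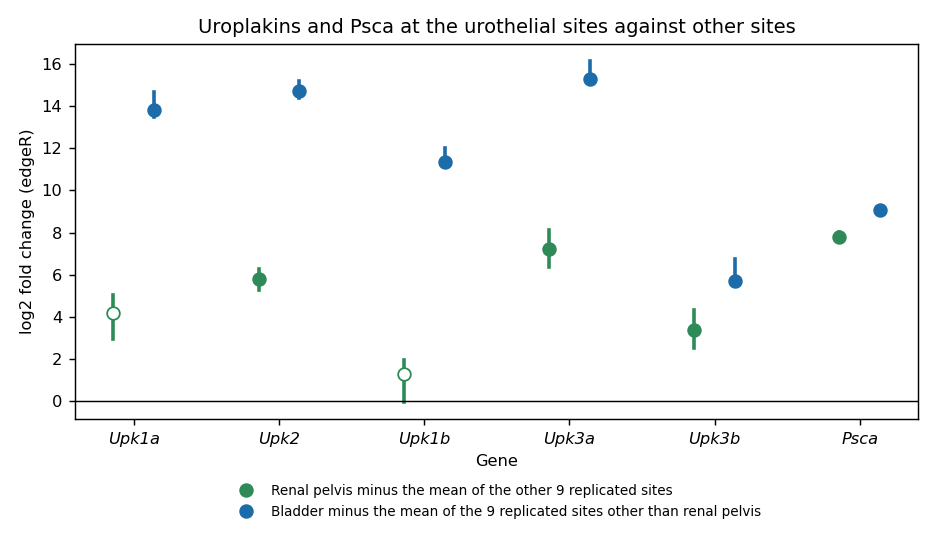
Fitted log2 fold change of each gene in renal pelvis and in bladder against other replicated sites. Filled points passed the threshold, open points did not, and vertical bars span the values when each of 21 libraries was left out. The distance between the sites is widest for Upk1a, Upk2, Upk1b and Upk3a and narrow for Psca (7.81 in renal pelvis, 9.09 in bladder).

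Set directly against bladder, renal pelvis was lower in Upk1b by edgeR, the 1 gene of 6 called, where 0.123% of 17877 genes were called lower. Its fitted difference was −10.08 (adjusted p = 0.0313), and the call ended without 8 of the 21 libraries in turn, both renal pelvis libraries among them. The fitted differences of Upk1a (−9.44), Upk2 (−8.82) and Upk3a (−8.06) were of similar size but did not pass, with adjusted p of 0.0965 to 0.155. The number called was 4 with limma, 2 with DESeq2 and 4 without the libraries labelled liver T3F and pancreas T173F. These counts have no share over all genes beside them, so they are no measure of how far the 6 genes stand out. Psca, at −1.34 ± 1.01 (SE; adjusted p = 0.936), and Upk3b, at −2.35 ± 1.82 (adjusted p = 0.947), did not pass, which does not show that their levels were alike.

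What else the renal pelvis libraries held gives these values their setting. Of 9 urothelium markers 5 were higher than at the other replicated sites, where 5.73% of all genes were: Krt7 at 276 TPM in T173F and 414 TPM in T426, the transcription factors Gata3 (296 and 105 TPM) and Elf3 (203 and 244 TPM), and, at low level, Foxa1 and Grhl3. Kidney medulla T3F, which is outside this comparison, had 62.1 TPM of Krt7, 69.97 of Gata3, 67.8 of Elf3, 0.516 of Foxa1 and 0.819 of Grhl3. Whether the marker levels in renal pelvis came from urothelium or from kidney tubule was not tested. Krt20 of the umbrella cells had 2.72 TPM in T173F and 8.57 TPM in T426, against 856 TPM in bladder. Snx31 had 4.17 and 7.12 TPM in the renal pelvis libraries, against 425 TPM in bladder. Collecting duct genes, which mark kidney tubule in the biopsy, were higher in 7 of 7 and summed to 13890 TPM in T173F and 8544 TPM in T426, against 115 TPM in bladder. The water channel Aqp2 alone had 8316 and 4470 TPM in the renal pelvis libraries, against 1.98 TPM in bladder. Smooth muscle genes summed to 310 and 185 TPM in the renal pelvis libraries, against 37450 TPM in bladder. The part of this tissue mixture in the uroplakin levels was not tested.

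Kidney parenchyma, sampled in T3F and outside the tested comparison, held the same genes at lower levels than bladder. Medulla had 75.8 TPM of Psca and cortex 21.1 TPM. Upk1a had 3.84 TPM in medulla (17 counts) and 9.60 TPM in cortex (52 counts), and Upk2 4.31 and 3.02 TPM. Upk3b was at 1.82 TPM in medulla and 1.77 TPM in cortex, 0.571% and 0.554% of the bladder level. Upk3a had 0.216 and 0.441 TPM there, on 4 and 10 counts.

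A further library in which all 5 uroplakins passed 4 TPM, beside bladder, was the esophageal junction of T3F. Upk1a stood at 17.9 TPM, Upk2 at 15.4, Upk1b at 8.10, Upk3a at 4.93 and Upk3b at 10.9 TPM. Upk1a, Upk2, Upk1b and Upk3a were at 0.328%, 0.349%, 0.506% and 0.429% of their bladder levels, a narrow band. Upk3b, at 3.42%, was above it, and Psca was at 0.268% of the bladder level, with 9.61 TPM. Of the 9 urothelium markers, Krt20 (0.390%), Krt7 (0.411%) and Snx31 (0.397%) lay in the range of the first 4 genes. The other 6 lay above it: Foxa1 at 2.09%, Gata3 at 2.20%, Elf3 at 3.84%, Pparg at 5.60% and Grhl3 at 41.3% of bladder, and the squamous keratin Krt5 higher in the junction (1394 TPM) than in bladder (54.5 TPM). The site has 1 library, so none of this was tested.

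Away from the urinary tract Upk1a, Upk2 and Upk3a were seen at different sites. Upk1a had 105 TPM (1185 counts) in the retinal pigment epithelium, the pigmented layer behind the retina, where Upk2 and Upk3a were listed at 0. Retina of T3F, left and right, had 0.744 and 1.51 TPM of Upk1a, and retina of T426 had 1.65 TPM. Non-glandular stomach had 11.8 TPM of Upk1a, again with Upk2 listed at 0.

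Upk2 was detected through most of the brain. Midbrain had 8.71 TPM, caudal cortex 8.56, rostral cortex 8.12 and thalamus with hypothalamus 5.06 TPM, all in T3F. Hippocampus had 6.55 TPM in T3F and 4.47 TPM in T426. Levels were lower toward the hindbrain, with 1.59 TPM in medulla oblongata, 1.44 in spinal cord, 0.981 in pons and 0 in cerebellum. Of 10 brain and spinal cord libraries 8 reached 1 TPM, against 5 of the 46 libraries outside brain, bladder and renal pelvis. The counts were low, between 5 and 57 in the libraries at 4 TPM or more. In the same 10 libraries Upk3a did not reach 1 TPM. Hippocampus was higher in Upk2 than the mean of the other replicated sites by edgeR (fitted difference 5.08, adjusted p = 0.0364, on 34 and 5 counts), where 12.9% of genes were called higher. The call held in 11 of 21 leave-one-out fits and ended when either hippocampus library, T3F or T426, was left out.

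Upk3a appeared once more, in optic nerve of T3F, at 4.01 TPM on 77 counts, while Upk1b there made up 11.5% of the summed uroplakins and Upk2 was listed at 0. Pancreas was called higher in Upk3a (fitted difference 6.06, adjusted p = 0.0403; 12.0% of genes called higher), but this rests on 3 counts in pancreas T173F, and without that library the fitted difference was −1.77.

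Upk1b and Upk3b were both detected at a set of sites where Upk2 and Upk3a were under 1 TPM and Upk1a was at most 4.22 TPM, in ovary T173F. The right atrium of T3F had 244 TPM of Upk3b and 65.2 TPM of Upk1b, and the right ventricle of T173F 45.0 and 12.6 TPM. The library labelled Adipose.AdrenalGland (T173F) had 83.5 TPM of Upk3b and 29.4 TPM of Upk1b. The library labelled Kidney.AdrenalGland, from the same animal, had 4.63 and 0.790 TPM. Ovary of T173F had 54.4 TPM of Upk3b and 24.3 TPM of Upk1b, and ovary of T3F 25.5 and 6.72 TPM. The library labelled liver T3F had 56.8 and 32.8 TPM, against 2.64 and 2.12 TPM in liver T426. In these libraries Upk3b exceeded Upk1b each time. The order was the opposite in mesentery, with 10.97 TPM of Upk3b and 14.96 TPM of Upk1b, and in bladder, with 319.5 and 1602 TPM. The library labelled Adipose.AdrenalGland had 1424 TPM of Cyp2e1, against 3.315 TPM in Kidney.AdrenalGland. Mesentery had 1375 TPM of Cyp2e1, inguinal fat 1143 and brown fat 6.222 TPM. Whether Adipose.AdrenalGland held the gland or the fat beside it was not tested.

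Over 59 libraries the Pearson correlation of Upk1b with Upk3b was 0.644 on log2(TPM + 1), and 0.622 over the 56 libraries left without bladder and renal pelvis. These are descriptions; the libraries come from 4 animals, and most sites from one. Of the 15 pairs among the 6 genes the next by Pearson over the 56 libraries was Upk1b with Psca, at 0.419. The order depended on the measure. By Spearman over the 56 libraries Upk1a with Upk3a was highest (0.573), then Upk1b with Upk3b (0.554). Upk3a was listed at 0 in 37 of 59 libraries.

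By Pearson correlation the gene most like Upk3b was Lrrn4, a mesothelial marker, with r = 0.771 over 59 libraries and 0.869 without bladder and renal pelvis. Its Spearman rho over 59 libraries was 0.551, below those of Tcf21, Rbpms, Myzap and Gata6 (0.688 to 0.734), which followed it by Pearson. Lrrn4 had 248 TPM in right atrium, 79.99 TPM in the library labelled Adipose.AdrenalGland, 59.4 TPM in ovary T173F and 50.7 TPM in right ventricle. Lrrn4 was ranked first on these same libraries, so the counts that follow describe that likeness and are no separate support for it. Of 19 libraries at 10 TPM of Upk3b or more, 15 reached 10 TPM of Lrrn4, and of the other 40 none did. The exceptions were both renal pelvis libraries, with Lrrn4 and Bnc1 listed at 0, duodenum T3F (4.33 TPM) and cecum (2.56 TPM). Of 9 mesothelium markers none was called higher in renal pelvis, which is near the 5.73% of all genes called there. In bladder Lrrn4 (149 TPM) and the transcription factor Bnc1 (28.6 TPM) were called higher, 2 of 9 markers, beside 1.84% of all genes. The 9 markers summed to 112 TPM in renal pelvis T173F and 209 TPM in renal pelvis T426, against 1320 TPM in bladder. In the renal pelvis most of this was Krt19 (80.6 and 164 TPM), a keratin of many epithelia, and Gpm6a (25.6 and 36.3 TPM). Aldh1a2 had 4.66 and 1.03 TPM there and Msln 0.355 and 5.71 TPM, and 2 markers in T173F and 4 in T426 were listed at 0. The part of mesothelium in the Upk3b level of either site was not tested.

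**Figure D4:**
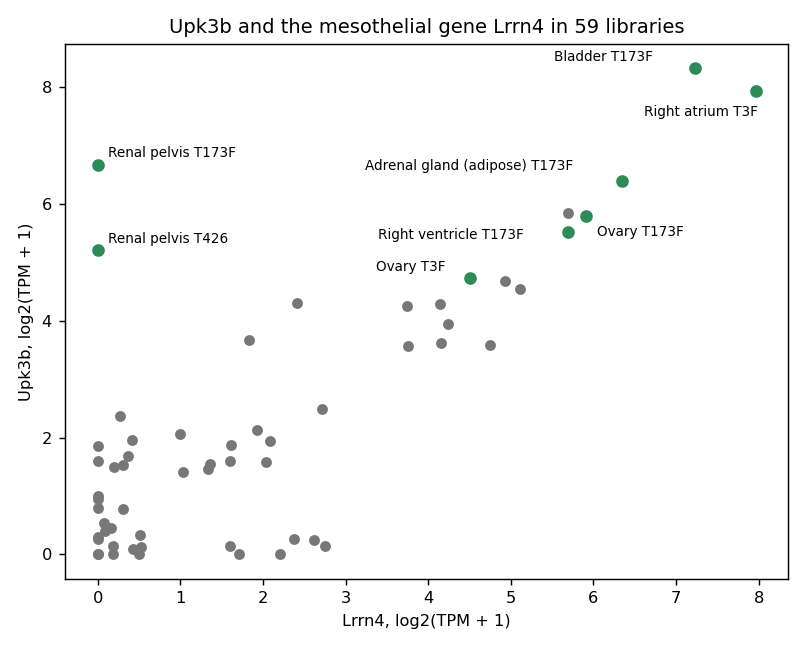
Upk3b against the mesothelial gene Lrrn4, both as log2(TPM + 1), 1 point per library, with 8 libraries named and in green. Levels climb together from lower left to right atrium and bladder, while both renal pelvis libraries sit on the left edge, with Lrrn4 at 0.

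Among the replicated sites, ovary was higher in Upk1b than the mean of the other 9 sites, at 15.5 ± 12.4 TPM (SD, n = 2) in ovary and 2.56 TPM elsewhere (fitted difference 4.74, adjusted p = 0.0103), where 3.57% of genes were called higher. The call ended without ovary T173F. Upk3b did not pass in ovary (log2 fold change 2.34 ± 1.01, SE; adjusted p = 0.321). Of 9 mesothelium markers 3 were higher in ovary, beside the same 3.57%. Liver was also called higher in Upk1b (fitted difference 5.55, adjusted p = 0.0014; 8.08% of genes called higher), but this ended without the library labelled liver T3F, and Upk3b did not pass there (adjusted p = 0.205).

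Cornea stood apart from all of these. It had 809 TPM of Upk1b on 13137 counts, with Upk3b at 0.367 TPM, Upk1a at 0.364 TPM and Upk3a listed at 0, so that Upk1b made up 99.9% of the uroplakin message. The hepatocyte genes named above were present as well (7213 TPM), and their part in these levels was not tested. Corneal keratin Krt12 was at 31650 TPM in the same library. The gene most like Upk1b over 59 libraries was Bnc1 (r = 0.834), which was highest in cornea (180 TPM) and next in right atrium (32.0 TPM). The mucin gene Muc16 followed (r = 0.769), with Lrrn4, C1qtnf7 and Tns4 at 0.657 to 0.648. Cornea also had 462 TPM of Upk3bl, a Upk3b-like gene, the highest of any library. Renal pelvis had 113 TPM of Upk3bl in T173F and 226 TPM in T426, against 8.11 TPM in bladder. Its difference from the other replicated sites was called higher in renal pelvis (adjusted p = 2.75e-05).

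Psca followed epithelia of several organs. It reached 9134 TPM (158395 counts) in glandular stomach, 2287 TPM in cornea and 1008 TPM in cecum, beside the urothelial sites. Glandular stomach also had 46640 TPM of Gkn1, a product of the surface mucous cells, and the 6 markers of those cells summed to 114800 TPM. Cecum, with 1008 TPM of Psca, had 99.7 TPM of Tff2, 2.58 TPM of Muc1 and 2.31 TPM of Tff1 among these markers, and Gkn1, Gkn2 and Muc5ac were listed at 0. Along the intestine Psca had 137 TPM in duodenum of T3F and 52.1 TPM in duodenum of T426, 10.9 TPM in jejunum, 0.840 TPM in ileum, 1008 TPM in cecum, 17.5 TPM in colon and 52.5 TPM in rectum. Cecum and rectum came from T173F and the other parts beyond duodenum from T3F. Duodenum T3F also held surface mucous markers: Tff2 at 5882 TPM, Tff1 at 369, Gkn2 at 366, Gkn1 at 323 and Muc5ac at 59.7 TPM. In duodenum T426 Tff2 had 248 TPM and Tff1 16.8 TPM, and Gkn1, Gkn2 and Muc5ac were listed at 0. Of the 6 markers 5 were called higher in duodenum, beside 8.33% of all genes. Their part in the Psca level of duodenum was not tested. Duodenum was higher in Psca than the mean of the other replicated sites by edgeR (log2 fold change 4.34 ± 0.46, SE; adjusted p = 2.6e-05), where 8.33% of genes were called higher. Hippocampus was lower, at 0.1004 TPM in T3F and 0.924 TPM in T426 (log2 fold change −5.38, adjusted p = 0.00208; 2.06% of genes called lower), and this call ended without hippocampus T3F.

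**Figure D5:**
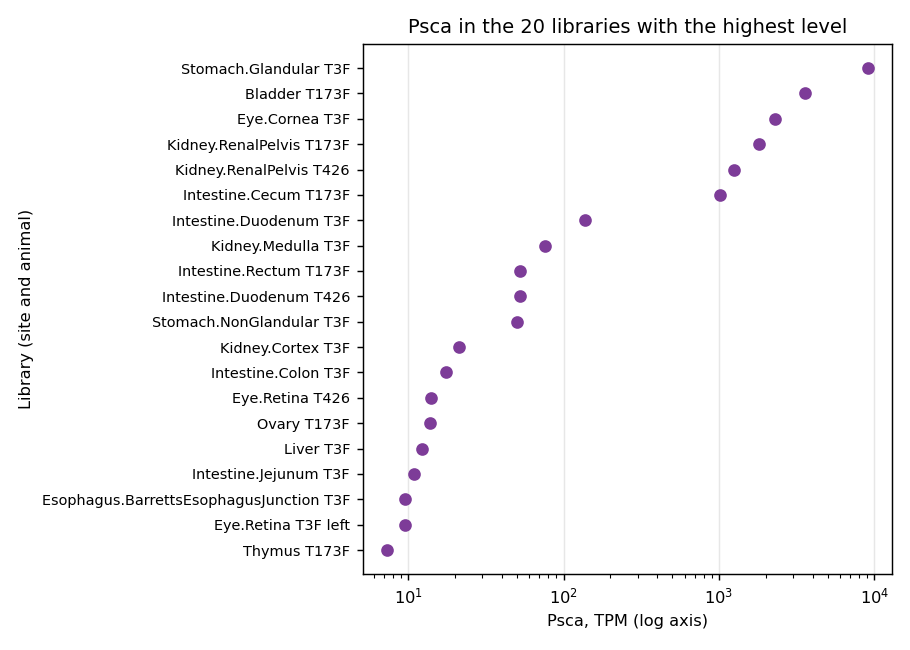
Psca in TPM on a log axis in the 20 libraries with the highest level, 1 point per library. Glandular stomach leads at 9134 TPM, 6 libraries lie at 1008 TPM or above, and the next is duodenum T3F at 137 TPM.

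Transcripts most like Psca over 59 libraries were the epithelial transcription factor Elf3 (r = 0.799), AA986860, the tight junction gene Tjp3, AI661453 and the kinase gene Ripk4, with r of 0.768 or more. Elf3 had 487 TPM in cornea and 203 and 244 TPM in renal pelvis, against 69.8 TPM in bladder. This likeness did not hang on the bladder library: without it r of Elf3 was 0.805.

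For Upk1a, Upk2 and Upk3a the 5 most similar genes were the same 5 (Gm20683, Gm20604, Mrps34, Npy6r and Snx31), with r of 0.682 to 0.916. Each had its highest level in bladder, from 108 TPM for Npy6r to 425 TPM for Snx31. Gm20604 had 278 TPM in bladder and was listed at 0 in the other 58 libraries. Without the bladder library r of the other 4 with these uroplakins was 0.129 to 0.579, so the likeness rests mostly on 1 library. For Upk3b the list after Lrrn4 was Tcf21, Rbpms, Myzap and Gata6, at 0.735 to 0.681.

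Over the 10 replicated sites jointly, 3 of 6 genes differed by edgeR, where 41.4% of 17564 genes did. They were Psca (adjusted p = 1.29e-05), Upk1b (0.00922) and Upk3a (0.0371). Upk3b (0.0791), Upk2 (0.127) and Upk1a (0.21) did not pass. Of 60 gene and site pairs 10 were called, 9 higher and 1 lower, at 6 sites, where 9.93% of all such pairs were called. Femur, retina, skeletal muscle and sciatic nerve had no called gene, where 10.2%, 21.1%, 7.19% and 5.06% of all genes were called in either direction. In order of level, Psca in renal pelvis lay above duodenum, and duodenum above retina, without overlap between animals. From retina to ovary and on down to hippocampus the ranges of each neighbouring pair overlapped. For Upk2 and Upk3a renal pelvis alone stood clear of the next site (hippocampus for Upk2, pancreas for Upk3a). For Upk1a all 9 neighbouring pairs overlapped. For Upk1b 7 of 9 did, with gaps between ovary (6.72 to 24.3 TPM) and duodenum (2.75 to 3.01 TPM) and between duodenum and renal pelvis (0.5885 to 2.36 TPM). With 2 animals per site, and no share over all genes beside them, these ranges are a description and no test. For Upk3b the ranges overlapped for 8 of 9 pairs, the gap lying between duodenum (18.1 to 18.7 TPM) and femur (1.89 to 1.92 TPM).

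Site specificity was summarised by tau over the 48 sites, an index that runs from 0 for an even level to 1 for a gene at a single site, on log2(TPM + 1). It was 0.979 for Upk3a, 0.936 for Upk2, 0.926 for Upk1a, 0.842 for Upk1b, 0.796 for Psca and 0.737 for Upk3b. The median of the 6 was 0.884, against 0.505 over 18950 genes with a count. Of all genes 97.4% had a lower tau than Upk3a and 70.5% a lower tau than Upk3b.

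Other genes of the urothelial programme were read from lists of general knowledge. Among 20 genes of urothelial differentiation 10 were higher in bladder (1.84% of all genes), with a median log2 fold change of 4.37 against −0.22 over all genes. The smallest adjusted p belonged to Snx31 (7.35 ± 0.54, SE; adjusted p = 4.53e-06), the transcription factor Grhl3 (237.7 TPM in bladder; adjusted p = 5.6e-06), Gata3 (264.9 TPM; adjusted p = 0.000904) and Krt7 (6.67 ± 0.94; adjusted p = 0.00136). In renal pelvis 7 of the 20 were higher (5.73% of all genes), with a median of 1.92 against −0.01 over all genes. Grhl3 had 3.56 and 0.860 TPM in the renal pelvis libraries, against 238 TPM in bladder, and Gata3 had 296 and 105 TPM, against 265 TPM in bladder.

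Of 12 genes of vesicle traffic 3 were higher in renal pelvis (Mal, Sytl2 and Vamp8) and 2 in bladder (Mal and Snx31), where 5.73% of all genes were called higher in renal pelvis and 1.84% in bladder. Mal, a lipid raft protein of apical transport, had 886 and 908 TPM in the renal pelvis libraries, against 360 TPM in bladder. Rab27b, a small GTPase of vesicle docking, had 34.0 and 14.4 TPM in the renal pelvis libraries and 86.0 TPM in bladder, and was called in neither. Among 20 other tetraspanins 3 were higher in renal pelvis (Tspan1, Tspan12 and Tspan33) and 1 in bladder (Tspan1), beside the same 5.73% and 1.84% of all genes. The bladder count is near that share. Tspan1 had 1400 and 822 TPM in the renal pelvis libraries and 367 TPM in bladder.

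Members of the Ly6 family beside Psca were called at both urothelial sites. In renal pelvis 7 of 17 tested were higher (5.73% of all genes), led by Lypd2 (162 and 268 TPM in renal pelvis, listed at 0 in bladder), Lypd6 and Lypd6b. In bladder 2 of 18 tested were higher (1.84% of all genes), Ly6d (7.94 and 0 TPM in renal pelvis, 1130 TPM in bladder) and Lypd8 (2.83 and 0 TPM in renal pelvis, 298 TPM in bladder). None of the 18 passed the direct test of renal pelvis against bladder by edgeR, where 0.123% of 17877 genes were called lower. A count of none is near that share.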

How the data were processed

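The files are 2 tables that the authors deposited for all libraries together, 1 row per gene. The first holds expected counts, estimated per gene by RSEM and not always whole (54.8% of values were whole within 0.005), as deposited. The second holds TPM, also as deposited by the authors, and its columns sum to 1000000. Per the submitters' processing notes the tools were Bowtie 0.12.8 and RSEM (version not stated); the assembly was not given in the sources used here. Symbols and identifiers in the tables are those of mouse, and RefSeq symbols of this species (assembly mArvNil1.pat.X) matched 14498 of 18970, the 6 genes among them. RSEM shares reads between similar transcripts: 47.5% of Upk1b values and 59.3% of Psca values were whole, against 96.6% for Upk1a and 98.3% for Upk2, so the first 2 may share reads with other genes.

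Expected counts were rounded and tested in edgeR 4.0.16 by quasi-likelihood (R 4.3.3; TMM, filterByExpr by site, Benjamini-Hochberg over all genes; called at an adjusted p below 0.05 with a log2 fold change of 1 or more in size, the joint test at the adjusted p alone). The fit held 20 libraries of 10 sites, with left and right retina of T3F summed, or 21 with the bladder library. Standard errors are given for genes with counts at every replicated site. Scripts were tested on simulated data. Animals pair libraries across sites per the labels; libraries of T3F and T426 at 7 shared sites had deviations with a median correlation of 0.126 (0.0189 to 0.808) over 21 pairs of sites, so a fit with the animal as a block was run beside. Other settings were DESeq2 1.42.0, limma 3.58.1, other scaling, no filter and each library of the replicated sites left out in turn.

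Depth limits low values: a level on under 3 counts is close to nothing seen, and the lowest totals were in testis T424, pancreas T173F and the T426 libraries. P-values rest on 2 animals per site. The named genes are the 6, the 5 genes with the highest Pearson correlation to each among genes reaching 10 TPM, and up to 4 per list. From the 16 lists written from general knowledge, further genes were named where a count was 5 or fewer, or where the level sets a library apart; those were chosen after their values were seen. The 6 genes, the lists and the tests were chosen with earlier results of these data known.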

Additional observations from a re-analysis of the deposited data

How the results depend on the processing

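Counts of the 6 genes called are given below by setting, with no share over all genes beside them. In renal pelvis against the other replicated sites the number was 4 by edgeR, 1 with DESeq2, 1 with the animal as a block, and 1 to 5 with 1 library left out. In bladder it was 6, 3 with the animal as a block and 6 without each library of the replicated sites in turn (the lone bladder library cannot be left out). For renal pelvis against bladder it was 1 by edgeR, 4 by limma, 2 by DESeq2, 4 in a reduced set (without the libraries labelled liver T3F and pancreas T173F), 2 in a strict set (also without 5 T426 libraries, of renal pelvis, sciatic nerve, hippocampus, retina and femur) and 0 to 3 with 1 library left out. Of 60 gene and site pairs 10 were called, 6 with the animal as a block and 5 to 12 with 1 library left out. The joint test called 3 genes, 2 to 4 with 1 library left out. The animal block changed no other count of calls by more than 1.5 times. The reduced and strict sets were chosen after seeing the data.

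Of the fitted differences under other settings, 597 kept their direction and side of the threshold, 74 lost the call, 16 gained it and 3 changed sign. The 3 were all Upk3a in pancreas, at −1.75 in the reduced set, −1.97 in the strict set and −1.77 without pancreas T173F; that library holds the 3 counts of Upk3a, and over all left-out libraries the value ran up to 7.245. The cause of the other lost calls was not tested. The median tau was 0.884, with 0.789 at a pseudocount of 0.1 and 0.993 on TPM with no log. Of the 30 genes most like the 6, 7 were shared when Spearman replaced Pearson, 14 at a pseudocount of 0.1 and 13 without the bladder library. Scaling by DESeq2 size factors moved the median of all genes in renal pelvis to −0.17 from −0.01 and the block moved it to 0.24, small beside the differences called.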
